A study of Homo sapiens with 12 samples.

Results

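RD is an established cell line grown from an embryonal rhabdomyosarcoma, a soft tissue tumour mostly of children. The cells described are RD cells that had received only the vector pK1 and no 4-hydroxytamoxifen (4-OHT), and they are the 3 samples whose titles give that vector and no 4-OHT, out of 12 samples in the series. The series has 4 groups of 3 samples: RD cells with pK1 or with PAX3-FKHR-ER, a fusion transcription factor joined to a hormone-binding domain that 4-OHT switches on, each without 4-OHT or with 30 nM of it for 24 h. All the cells, the vector controls included, had been transduced and were grown in DMEM with 10% serum. The design text speaks of 3 vector populations, but no label ties a replicate number to one of them, so the spread over the 3 arrays may hold biological and technical parts. Untransduced RD cells were not analysed here, and by their labels all samples are of 1 line.

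Embryonal rhabdomyosarcoma cells look like muscle precursors that have entered the muscle lineage but do not mature into fibres. In normal muscle, the factors MYF5 and MYOD1 commit a cell to the lineage, and MYOG and the MEF2 proteins then switch on the contractile genes as the cell leaves the cycle and fuses. MYOD1 works as a pair with an E protein (TCF3, TCF4 or TCF12), and the ID proteins hold E proteins in pairs that cannot bind DNA. Pathologists recognise the tumour by desmin, MYOD1 and MYOG, and its cells are known to keep dividing while they express MYOD1.

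Each sample was read on 1 Affymetrix U133A array. A gene's value is its MAS5 signal, a brightness on a linear intensity scale, taken from the brightest probe set that carries that single gene symbol, which left 11963 genes. Values for replicates 1, 2 and 3 are given in that order, and a mean is followed by its SD over the 3 arrays (n = 3). A gene's percentile is its place among the 11963 genes ordered from the dimmest to the brightest mean signal, as a percent. The top 10% of the genes were the 1196 with a mean signal from 529.5, the lower 40% were those under 55.3, and the median gene had a mean signal of 83.4. The spread is the range, the highest array minus the lowest on log2(signal + 16), and it is counted for the 7178 genes outside the lower 40%. Brightness also depends on the probes. Among 4310 genes with over 1 such probe set, the brightest read a median of 3.50 times the dimmest (quartiles 1.77 and 9.32), so the order of different genes describes these arrays and not molecule numbers.

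The 3 arrays were alike in scale, and they were not alike in all else. Their median signal over probe sets was 58.5, 56.5 and 55.9, and the brightest 1% of genes held 18.5%, 18.5% and 18.4% of the signal summed over genes. The ratio of the 3′ to the 5′ control probe set, a sign of RNA length, was 0.92, 0.90 and 0.94 for GAPDH and 0.98, 0.94 and 1.00 for ACTB. The 24 probe sets for poly-A spike-ins, bacterial transcripts that can be added to RNA before labelling, had a median signal of 7.41 on replicate 1 against 179 and 168 on replicates 2 and 3, while the hybridisation controls read 249, 216 and 212. In a check for mixed-up samples the 3 arrays gave 3 different results, and 1 array did not match the line named in the labels. No source used here says why, and the cause was not tested. For this reason the values of each array are printed for the genes the results turn on. Lists are also read without replicate 1, chosen for its low spike-in signal and not by the check for mixed-up samples. The array that did not match is not numbered here, so that reading is no remedy for it.

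The brightest genes were those of protein synthesis, the cytoskeleton and glycolysis, and few of them varied much between arrays. Of the 30 genes with the highest mean signal, 17 coded for ribosomal proteins, and means ran from 5075 to 8555. RPS10, of the small ribosomal subunit, led with 6891, 9703 and 9069.6. GAPDH, a glycolytic enzyme, read 9543, 7938 and 7931, and EEF1A1, the factor that brings aminoacyl-tRNA to the ribosome, read 9467, 8155 and 7573. These 3 genes came within a range of 0.50 on the log2 scale, and no array was the highest for all of them.

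The other ribosomal protein genes of the 30 were RPL37A, RPS15, RPL41, RPL23A, RPL7, RPS19, RPL8, RPS18, RPL3, RPS14, RPS23, RPL30, RPL12, RPS12, RPS6 and RPS24. Tubulin genes of this set were TUBA1B (9825, 7308 and 7957), TUBA1C (6659.5, 6979 and 6713) and TUBB (6654, 6291 and 6282), the building blocks of microtubules. Actin was represented by ACTB (7988, 8135 and 8188), with the actin-binding CFL1, which cuts filaments, and TMSB10, which holds actin monomers. VIM, vimentin, the intermediate filament of mesenchymal cells, read 5818, 4055 and 5730.4. The set was completed by PPIA, a protein-folding isomerase, UBB, a ubiquitin gene, GNAS, the stimulatory G protein alpha subunit, and TPT1, an abundant growth-related protein. None of the 30 had a range over 1, and the largest was 0.93, of TMSB10. Without replicate 1, 25 of the 30 stayed among the 30 brightest. Of their probe sets 16 carried the suffix _x_at and 10 the suffix _s_at, which mark probes shared with near-identical sequences or with several transcripts. Ribosomal protein genes have many processed pseudogene copies, so their signals may not come from the named gene alone. Leaving such probe sets out lowered the count of ribosomal protein genes among the 100 brightest from 41 to 11.

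The brightest transcripts often shared a sequence feature that the ranking did not use. Messenger RNAs of ribosomal proteins and of several translation factors are known to start with a C followed by a run of C and T bases, the 5′ terminal oligopyrimidine (TOP) tract, through which mTOR signalling controls how much they are translated. Windows of 30 bases around the RefSeq transcript start are shown, 10 before it and 20 from it. They are from RefSeq on GRCh38.p14, on the sense strand, which reads as the RNA does. They are given for 8 of the 30 brightest genes, 5 with the run and 3 without. Capitals mark the unbroken run of C and T that begins with a C at the first transcribed base.

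RPS10: catgctccttCCTTTCCagccccggtaccg
EEF1A1: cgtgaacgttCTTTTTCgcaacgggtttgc
TPT1: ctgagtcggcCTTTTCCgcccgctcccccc
RPS19: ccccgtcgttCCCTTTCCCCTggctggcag
RPS24: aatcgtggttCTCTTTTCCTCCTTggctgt
GAPDH: gtgcatccctgtccggatgctgcgcctgcg
TUBA1B: gccccgccctagtgcgttacttacctcgac
VIM: atcgtgatctgggaggcccacgtatggcgc

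These windows lie at chr6:34426050-34426079 (minus strand) for RPS10, chr6:73521013-73521042 (minus) for EEF1A1, chr13:45341164-45341193 (minus) for TPT1, chr19:41860245-41860274 (plus) for RPS19 and chr10:78033853-78033882 (plus) for RPS24. Those of GAPDH, TUBA1B and VIM lie at chr12:6535254-6535283 (plus), chr12:49131376-49131405 (minus) and chr10:17228231-17228260 (plus). The run was 7 bases long in RPS10, EEF1A1 and TPT1, 11 in RPS19 and 14 in RPS24. It was searched as a C at the first transcribed base followed by at least 4 bases that are each C or T. Only the sense strand was searched, since the place of the run is fixed by the start.

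Such a run stood at 4.04% of 27305 RefSeq starts and at 4.94% of the 9563 measured genes that had one. Among the brightest 1% of genes it stood at 39.8% of 103, among percentiles 90 to 99 at 7.66%, and in the lower 40% at 3.25%. Among ribosomal protein genes 68.1% of 47 had it, and the other genes of the brightest 1% had it at 21.9% of 64. Of the 25 among the 30 brightest with a start in the table, 14 had it, and TUBB was one of them with a run of 5. A single start per gene was read, and RD cells may use others, so a missing run says only that these letters are absent from this window.

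Gene lists were then placed on the same scale, each by the median percentile of its measured genes, where all genes have 50. The lists for growth and housekeeping were near the top on every array. Ribosomal proteins had a median percentile of 99.7 (42 genes), glycolysis 98 (17), chaperones 97.9 (27), the cytoskeleton 97.3 (27), the respiratory chain 97.2 (31) and translation factors 97.2 (24). Of these lists no gene but CRYAB, a small heat-shock protein of mature muscle (34.7, 21.5 and 81.6), was in the lower 40%. The exception inside the ribosome was RPLP2, a stalk protein, whose probe set read 72.3, 60.3 and 56.7, outside the lower 40% and the only one of 42 below the top 10%.

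**Figure D1:**
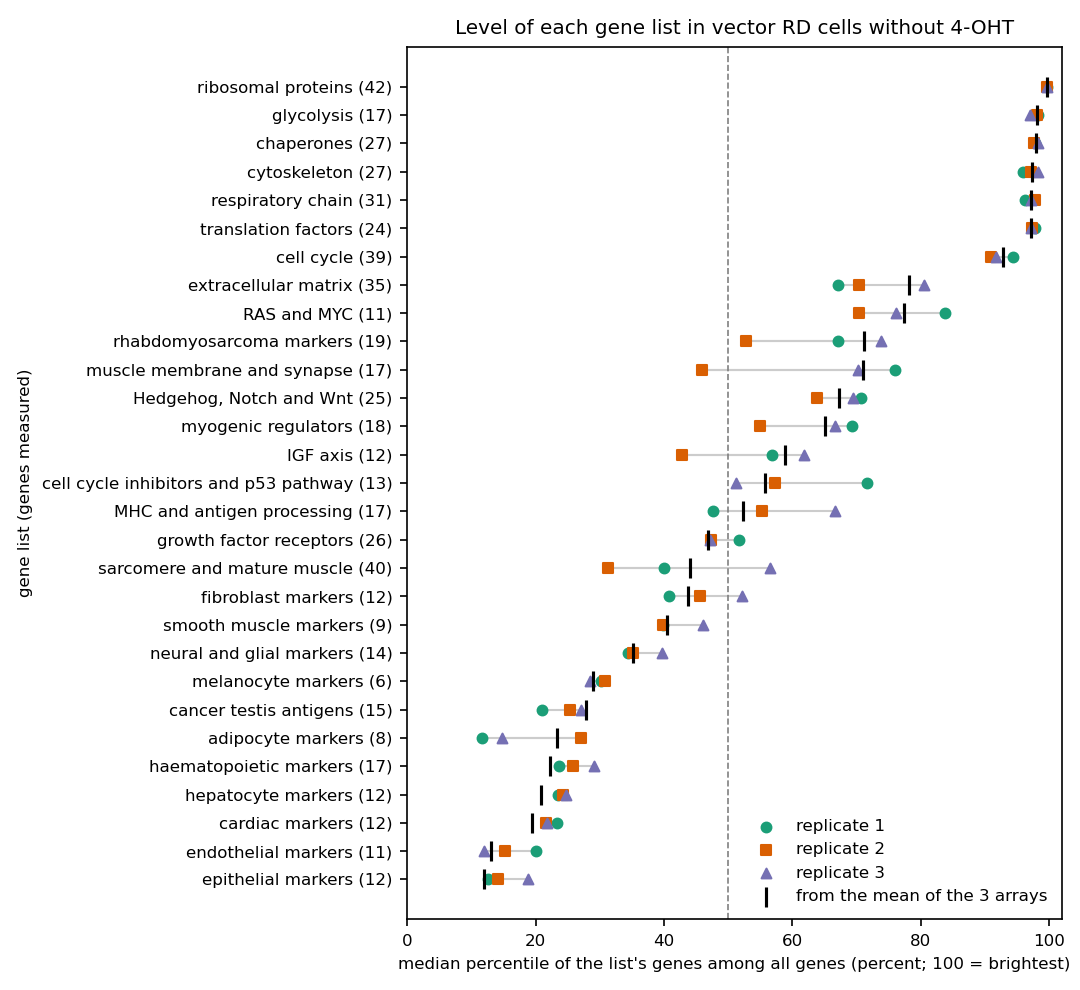
Median percentile of each gene list among the 11963 genes (horizontal axis, percent) on each array (coloured points) and from the mean of the 3 arrays (black bars), with the number of measured genes in parentheses; the dashed line is the median of all genes. Ribosomal proteins sit at 99.7 and the growth lists above 90 on every array, the muscle lists are spread over the middle, and the lists of other lineages lie below the dashed line in the mean.

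Glycolysis and respiration were both bright. The lactate dehydrogenase subunits read 6189, 4044 and 4099 for LDHB and 4049.8, 2891 and 3889 for LDHA. PKM, pyruvate kinase, read 2341, 2418 and 2729.9. The dehydrogenase subunits were lowest on replicate 2, and PKM stayed within narrow limits. Other bright enzymes were ENO1 (3376, 3977 and 3206) and TPI1 (4813, 2812 and 2709). HK1, hexokinase 1, which traps glucose in the cell, differed between arrays with 229, 945 and 939 and was lowest on replicate 1. Of the respiratory chain, 27 of 31 genes were in the top 10%, led by ATP5F1B, the catalytic beta subunit of ATP synthase (3258, 4138 and 3334), and COX8A (2079.6, 3743 and 3329.7), ATP5F1A (3860.0, 2715 and 2229), COX6A1 (1647, 2627 and 2432) and ATP5MC3 (1699.9, 2021 and 2469). Chaperones came close behind. HSPD1, the mitochondrial chaperonin, read 5727, 4709 and 4578, and HSP90AB1, the constitutive cytosolic HSP90, read 4283, 4598 and 5037. The same list held CCT4 (4562, 3897 and 3711), of the TRiC chaperonin, and the inducible HSP90AA1 (3379.8, 3401 and 3185). These chaperones differed little between arrays. Among translation factors, PABPC1, which binds poly-A tails, read 6386, 3033 and 3579.6, EEF2, which moves the ribosome along, 3805, 3657 and 3374, and EIF1, which selects the start codon, 1994, 4755 and 3819. EEF2 was steady, PABPC1 was highest and EIF1 lowest on replicate 1. EIF3E (3167, 2056 and 2438), a subunit of the scaffold factor eIF3, came next.

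The cells carried the transcripts of dividing cells. The cell cycle list had a median percentile of 92.8 (94.4, 90.9 and 91.8 on the 3 arrays), 25 of its 39 genes were in the top 10% and none was in the lower 40%. TYMS, which makes thymidylate for DNA, read 3424, 2613 and 2209. CDK4, the kinase that starts the cycle with D cyclins, read 2112, 2046 and 2306, within a range of 0.17. MCM2, of the replicative helicase, read 2799.9, 2044 and 1463, and RRM2, of ribonucleotide reductase, 2282, 1639 and 2242. UBE2C, the ubiquitin-conjugating enzyme of mitotic exit, was nearly level at 1996, 1935 and 1876. TYMS and MCM2 were highest on replicate 1, while CDK4 and UBE2C hardly moved.

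The D cyclins behaved differently from one another. CCND2 read 2755, 352 and 1067 and CCND3 2389, 618 and 1867, both highest on replicate 1 and lowest on replicate 2. CCND1 read 51.9, 55.2 and 314, highest on replicate 3. These 3 genes were chosen for a closer look after their values were seen. Of the 39 cell cycle genes, 11 (28.2%) had a range over 1, beside 28.6% of all genes counted, and 9 of the 11 were highest on replicate 1. Without replicate 1 the count was 4. A range is then between 2 arrays, and 13.5% of all genes counted had one over 1.

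Inhibitors of the cycle and p53 pathway genes lay near the middle, at a median percentile of 55.7. CDKN2A, whose locus codes for the CDK4 inhibitor p16 and for ARF, was the only one of 13 in the top 10%, with 456, 1222 and 615. GADD45A, a stress-induced growth arrest gene, read 332, 296 and 596. PLK2, a p53 target kinase, read 268, 243 and 579, and CDKN1A, the p21 inhibitor, 267, 391 and 358. CDKN2A was highest on replicate 2 and PLK2 and GADD45A on replicate 3. CDKN1B, the p27 inhibitor, was highest on replicate 1 with 527, 148 and 152. MDM2, the ubiquitin ligase that p53 induces and that removes p53, was dim at 29.8, 39.9 and 32.3.

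Several regulators of the muscle lineage were read well, MYOD1 among them, and others were low. MYOD1, the lineage factor, read 1112, 222 and 367 (567 ± 477, percentile 90.8), highest on replicate 1 and above the median gene on every array. By their brightest probe sets, its E protein partners were also read well: TCF3 at 689, 379.8 and 673, TCF12 at 951, 297 and 369 and TCF4 at 351, 189 and 494. Each was lowest on replicate 2. For TCF3 and TCF12 this reading depends on the probe set. The dimmest of the 13 probe sets of TCF3 had a mean signal of 6.741, and the dimmer of the 2 of TCF12 had 4.898. The dimmest probe set of TCF4 was above the median gene. The ID proteins, which oppose that pairing, read 1571, 441 and 460.4 for ID1, 963, 478 and 432 for ID3 and 584, 210.4 and 180.1 for ID2, all highest on replicate 1. MSC, musculin, a repressor that competes for the same partners, read 359, 127 and 391 and was lowest on replicate 2.

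Most other regulators lay lower on the same scale. MYOG, myogenin, the factor of terminal differentiation, read 32.8, 10.3 and 94.9 (percentile 35.8), in the lower 40%, and was over the median gene on replicate 3 alone. The MEF2 genes, partners of MYOD1 and MYOG at muscle genes, read 152, 215 and 139 for MEF2A, 217, 47.2 and 179 for MEF2C and 45.8, 29.7 and 32.5 for MEF2D. MEF2C was lowest on replicate 2 and MEF2A highest there. MYF5 read 0.814, 1.31 and 1.96 and MYF6, a factor of mature fibres, 18.2, 42.6 and 10.3. The paired-box genes of muscle stem cells read 49.4, 41.5 and 30.6 for PAX3 and 11.1, 6.11 and 7.26 for PAX7. The EYA genes of the same network read 104, 73.7 and 81.6 for EYA1 and 17.4, 76.1 and 7.35 for EYA2. All 6 of MYOG, MEF2D, MYF5, MYF6, PAX3 and PAX7 and also EYA2 were in the lower 40%, the share that holds 40% of all genes, and a low signal does not show that a transcript is absent.

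**Figure D2:**
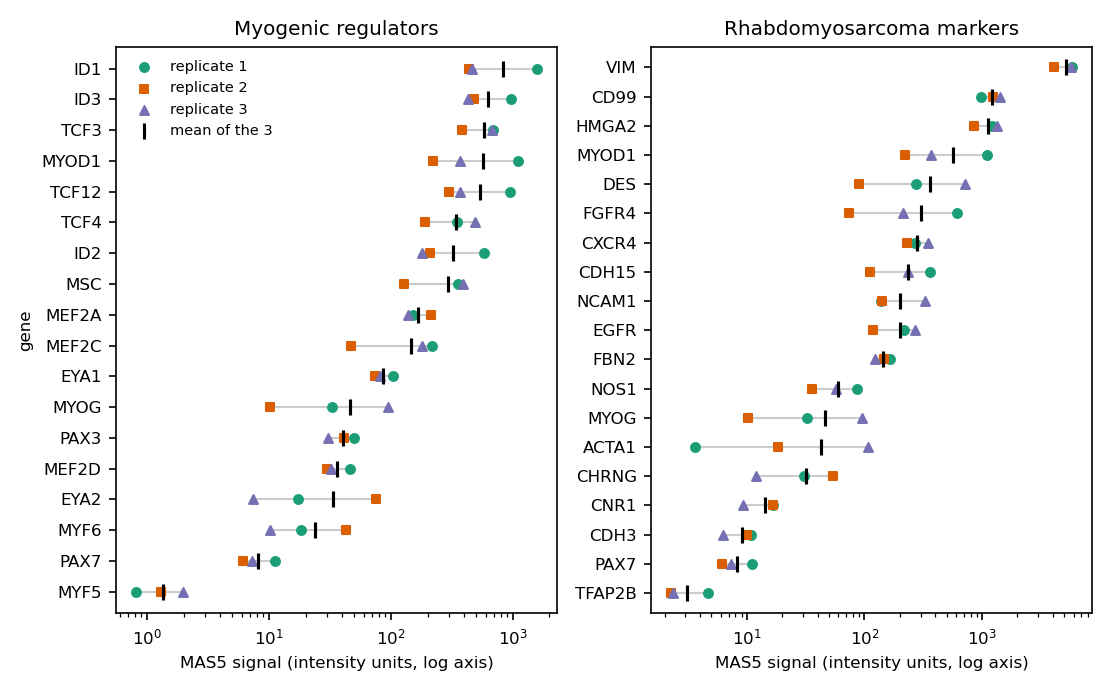
MAS5 signal (horizontal log axis, intensity units) of the 18 myogenic regulators (left) and the 19 rhabdomyosarcoma markers (right) on each of the 3 arrays, with the mean as a black bar and a grey line from lowest to highest. ID1, MYOD1 and TCF12 are highest on replicate 1, MYOG is under 100 on all arrays, and VIM is the brightest marker.

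In all, 5 of the 18 regulators were in the top 10% (ID1, ID3, TCF3, MYOD1 and TCF12), 7 were in the lower 40%, and the median percentile was 65.1 (69.2, 54.9 and 66.6). The places of TCF3 and TCF12 rest on their brightest probe sets. Without replicate 1 none of the 18 was in the top 10%, and the median percentile was 63. The median also hung on the probe sets: it was 50.2 with the median over a gene's probe sets, and 39.9 over the 11 regulators left without _x_at and _s_at probe sets. Of the 11 regulators outside the lower 40%, 8 had a range over 1, beside 28.6% of all genes counted, and 6 of the 8 were highest on replicate 1. Without replicate 1 the count was 3, beside 13.5% of all genes counted. A range over fewer arrays is smaller for all genes, so this fall is not tied to the regulators alone.

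Markers used for the tumour gave a like picture. The 19 measured genes had a median percentile of 71.2, and 63.6 without replicate 1. It fell to 40.8 with the median over a gene's probe sets and to 47.2 without _x_at and _s_at probe sets. Besides VIM, the brightest were CD99, a surface glycoprotein of several small round cell tumours, with 976, 1236 and 1417, and HMGA2, a chromatin protein of embryonic and tumour cells, with 1205, 847 and 1329. Both were bright on every array. DES, desmin, the intermediate filament of muscle, read 273, 89 and 710.5, highest on replicate 3. FGFR4, a growth factor receptor of muscle precursors, read 615, 74.5 and 215, highest on replicate 1. CXCR4, a chemokine receptor of migrating precursors, read 267, 231 and 347, with a small spread. CDH15, M-cadherin of myoblasts, read 361, 112 and 232, and NCAM1, an adhesion molecule of fusing muscle, 137, 141 and 327. CDH15 was highest on replicate 1 and NCAM1 on replicate 3.

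The remaining markers include genes linked to the other main subtype, in which a PAX3 or PAX7 fusion drives the tumour. Of those linked to the embryonal subtype, EGFR read 215, 117 and 270.3 and FBN2, a fibrillin, read 165, 147 and 122. Of those linked to the fusion subtype, NOS1 read 86.2, 35.5 and 57.7, CNR1 read 16.7, 16.7 and 9.25, CDH3 (P-cadherin) read 10.9, 9.97 and 6.22 and TFAP2B (AP-2 beta) read 4.67, 2.28 and 2.35. All of these 4 genes of the fusion subtype but NOS1 were in the lower 40%. They do not stand for all genes linked to that subtype. FGFR4 and CXCR4, given above, are also linked to it and were outside the lower 40%. CHRNG, the fetal acetylcholine receptor subunit, read 30.3, 54 and 12, and ACTA1, skeletal alpha actin, 3.64, 18.3 and 107. ACTA1 was dim on replicates 1 and 2 and above the median gene on replicate 3.

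The contractile genes were spread over the scale much as all genes are. Of the 40 sarcomere and mature muscle genes 4 were in the top 10% and 17 in the lower 40%, shares near those of all genes. Their median percentile was 44, with 40.1, 31.3 and 56.5 on the 3 arrays, so it was above the middle on replicate 3, and it was 51.6 without _x_at and _s_at probe sets. ACTC1, the actin of fetal muscle, read 1480.5, 487 and 3190.2. MYL1, a fast light chain of early fibres, read 1811, 127 and 2365, and TNNT1, slow troponin T, 1540.3, 592 and 779. All 3 were lowest on replicate 2, ACTC1 and MYL1 were highest on replicate 3 and TNNT1 on replicate 1. MYL11, the fast regulatory light chain, read 237, 67.6 and 2244, and TNNC2, fast troponin C, 93.5, 43.3 and 1289. Both were bright on replicate 3 alone, so their means of 849 ± 1210.3 and 475 ± 705 rest on that array.

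Other contractile genes differed in the same way. MYH3, embryonic myosin heavy chain, read 27.4, 1.91 and 206, TNNI1, slow troponin I, 40.8, 3.59 and 414, and CKM, muscle creatine kinase, 6.84, 8.69 and 261. Each was over 200 on replicate 3 and under 50 on the other arrays. These 3 were named after their values were seen. The adult myosins MYH1, MYH2 and MYH7 had mean signals of 2.18, 16.1 and 52.3, all in the lower 40%. Of the 23 contractile genes outside the lower 40%, 19 had a range over 1 (82.6%, beside 28.6% of all genes counted), and 15 of those were highest on replicate 3, 4 on replicate 1 and none on replicate 2. The summed signal of the list was 7673, 2582 and 14858. Without replicate 3 the median percentile was 35.2, 24 of the 40 genes were in the lower 40%, and 8 had a range over 1. Without replicate 2 those values were 47.8, 11 and 15, and without replicate 1 they were 45.2, 15 and 21. Ranges were counted only for the genes outside the lower 40% in each setting. Of all genes counted, 18.6% had a range over 1 without replicate 3, 13.7% without replicate 2 and 13.5% without replicate 1. In bulk RNA, fewer cells of a kind and less RNA per cell cannot be told apart.

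**Figure D3:**
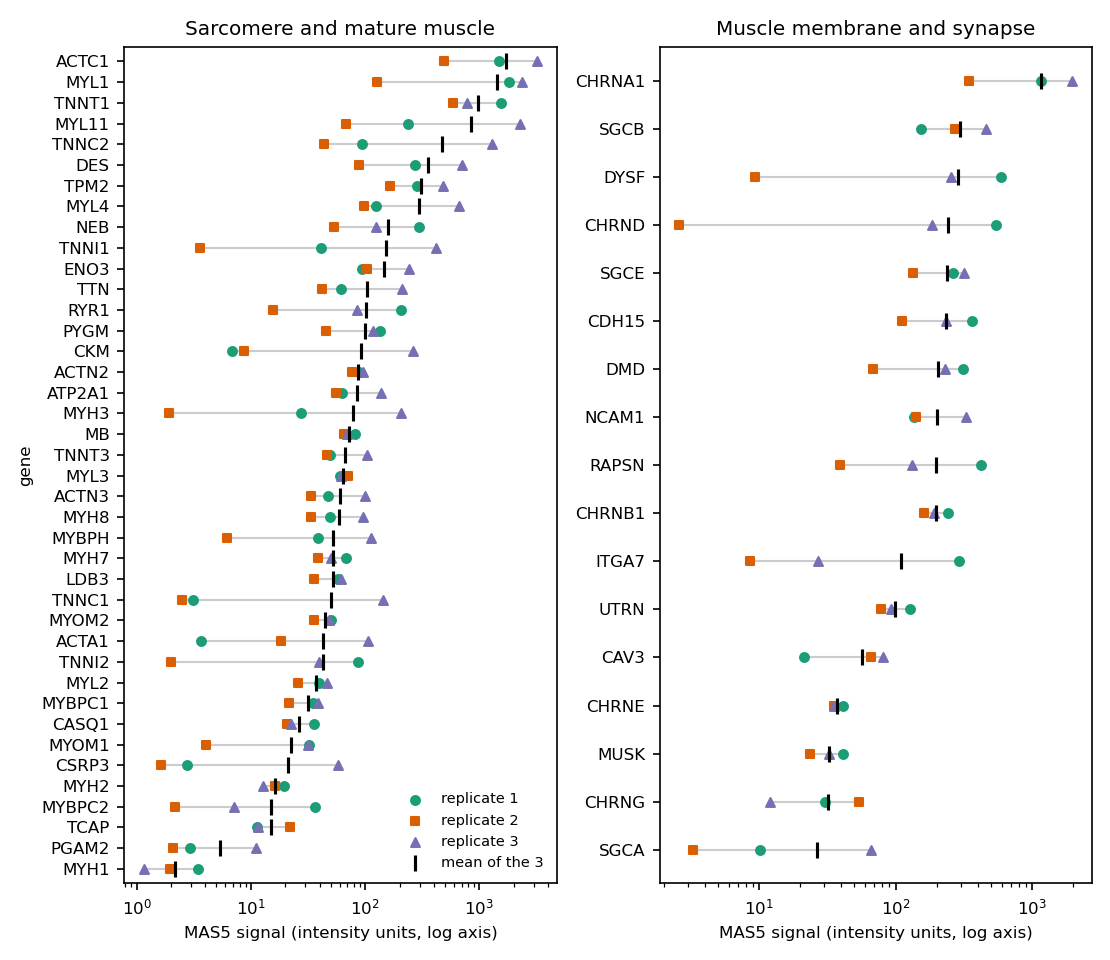
MAS5 signal (horizontal log axis, intensity units) of the 40 sarcomere and mature muscle genes (left) and the 17 genes of the muscle membrane and synapse (right) on each of the 3 arrays, with the mean as a black bar and a grey line from lowest to highest. Replicate 3 is highest for most spread contractile genes, and replicate 2 has the lowest value for ACTC1, MYL1, DYSF, CHRND and RAPSN.

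Membrane and synapse genes of muscle lay higher on this scale than the contractile list, with a median percentile of 70.9 (76, 45.9 and 70.2, and 53.4 without replicate 1). CHRNA1, the alpha subunit of the muscle acetylcholine receptor, read 1161, 344 and 1974 and was the only one of 17 in the top 10%. CHRND, its delta subunit, read 541, 2.61 and 185, and DYSF, dysferlin, which reseals torn membranes, 592, 9.33 and 256. The last 2 were over 500 on replicate 1 and under 10 on replicate 2. Of the sarcoglycans, which anchor dystrophin in the membrane, SGCB read 153, 272 and 462 and SGCE 265, 135 and 318. RAPSN, rapsyn, which gathers the receptors, read 426, 39.2 and 133 and was lowest on replicate 2. Of the 13 genes outside the lower 40%, 11 had a range over 1, beside 28.6% of all genes counted. With 1 array left out the count was 6 to 7, beside 13.5% to 18.6% of all genes counted.

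Receptors and growth factor genes were of middle level. None of the 26 growth factor receptors was in the top 10%, 12 were in the lower 40%, and the median percentile was 46.9. After FGFR4 the brightest were AXL (496, 67.8 and 336), EPHA2 (419, 124 and 306), EPHB4 (349, 176 and 279.7) and FGFR1 (196, 177 and 288), all of them receptor tyrosine kinases. AXL and EPHA2 were lowest on replicate 2, as FGFR4 was. IGF1R, the receptor of a growth factor axis long studied in rhabdomyosarcoma, read 315, 107 and 134, and IGF2R, which clears IGF2, read 281, 279 and 295, nearly level. IGFBP2, which binds the IGFs, read 1729, 433 and 1891, lowest on replicate 2, and IGFBP6, which prefers IGF2, read 69, 359 and 1561. IGFBP6 was highest on replicate 3 and lowest on replicate 1. IGFBP3 read 189, 56.1 and 180.2. The IGF list of 12 genes had a median percentile of 58.8.

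Among 11 genes of the RAS and MYC pathways, MAP2K1, which codes for MEK1, read 656, 817 and 1746, MAP2K2, which codes for MEK2, 569.8, 903 and 939, and MYC, the growth-promoting transcription factor, 611, 645 and 798. These were the 3 in the top 10%, and MYC had a range of 0.38. MAX, the partner of MYC, read 698, 479.6 and 261, and HRAS 486, 350.4 and 422. MYCN, the MYC relative of neural and early mesodermal cells, read 169, 2.72 and 46.7, and was named after its values were seen. It was over the median gene on replicate 1 alone.

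Of 25 Hedgehog, Notch and Wnt genes, HEY1, a Notch target repressor that holds back MYOD1, was the brightest at 3471, 2181 and 2379, bright on every array. DKK1, a secreted Wnt inhibitor, read 112, 1116 and 932 and was low on replicate 1. NOTCH2, a Notch receptor, read 485, 483 and 501, and RBPJ, the DNA-binding protein of that pathway, read 484, 405 and 565. NOTCH2 was almost the same on all arrays, and NOTCH3 was highest on replicate 1 with 1023, 147 and 314. The list's median percentile was 67.3.

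Matrix genes were bright and varied. The 35 extracellular matrix genes had a median percentile of 78.1 (67.1, 70.4 and 80.5), with 11 in the top 10% and 3 in the lower 40%, and it was 74.5 without replicate 1. COL3A1, fibrillar collagen III, read 895, 2462 and 5197 (range 2.52), highest on replicate 3. FN1, fibronectin, read 1918, 501 and 2334, and SPARC, a collagen-binding glycoprotein, 2319, 534 and 1752. FN1 and SPARC were both lowest on replicate 2. TIMP1, a protease inhibitor, read 941, 1527 and 1551, and FSTL1, a secreted follistatin relative, 1411, 942 and 1390.3. The last 2 varied less. The chains of collagen I read 257, 321 and 394 for COL1A1 and 91.1, 7.14 and 37.4 for COL1A2. Of the 32 genes outside the lower 40%, 23 had a range over 1 (71.9%, beside 28.6% of all genes counted). When 1 array was left out the count was 15 to 17, beside 13.5% to 18.6% of all genes counted.

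Genes of antigen presentation and germ-line antigens differed by array. B2M, the light chain of MHC class I, read 1608, 1602 and 3529. The class I heavy chains read 363, 2372 and 1263 for HLA-C, 152, 1865 and 1286 for HLA-B, 243, 764 and 615 for HLA-G and 159, 544 and 369.8 for HLA-F. All 4 heavy chain probe sets were lowest on replicate 1 and highest on replicate 2. HLA genes are alike and vary between people, so a probe set can read several of them, or one allele better than another. Of the 15 genes of this list outside the lower 40%, 10 had a range over 1, beside 28.6% of all genes counted, and none of the 10 was highest on replicate 1. The count was 4 without replicate 1, 9 without replicate 2 and 6 without replicate 3. Of all genes counted, 13.5%, 13.7% and 18.6% had a range over 1 in these settings. The median percentile of the 17 measured genes was 52.4, and 60.8 without replicate 1. The cancer testis antigens, genes of the germ line that tumours switch on, had a low median percentile of 27.9, with 10 of 15 in the lower 40% and 3 in the top 10%. Without replicate 3 only 1 of them was in the top 10%. PRAME, one of them, read 851, 405 and 703 and was well read on every array. MAGEA6 read 14.4, 722 and 2092, CTAG2 4.52, 395 and 1518 and MAGEA12 23.5, 423 and 1032. These 3 were under 25 on replicate 1 and highest on replicate 3, and MAGEA10 had the same order with 8.79, 73.1 and 203. MAGEA genes are close copies on the X chromosome and their probe sets may cross-hybridise.

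Markers of other lineages were low, which sets the muscle genes in context. None of the epithelial (12 genes), endothelial (11), melanocyte (6), adipocyte (8), hepatocyte (12), cardiac (12), haematopoietic (17) or neural and glial (14) markers was in the top 10%. Their median percentiles were 11.9, 13.1, 28.9, 23.3, 20.9, 19.4, 22.2 and 35.2, all below 50 on every array. Defining genes were near the bottom, with KRT19, an epithelial keratin, at 1.18, 1.53 and 1.05, EPCAM at 2.18, 13.2 and 8.75, CDH5, the endothelial cadherin, at 4.03, 1.5 and 2.1, PTPRC, the leukocyte surface phosphatase, at 23.5, 16.3 and 5.97 and ALB, albumin, at 19, 6.66 and 6.58. The brightest endothelial marker was PECAM1, an adhesion molecule, at 75.1, 32.1 and 51.5, and the brightest melanocyte marker MITF, the lineage factor, at 39.9, 81.5 and 43.6. No signal on these arrays is exactly 0, so they are given as read.

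Some markers of those lists were above the median gene. SFN, 14-3-3 sigma of epithelia, read 372, 287 and 322, NKX2-5, a heart factor, 219, 219 and 127 and CYP3A4, a liver enzyme, 115, 80.3 and 96.1. HBB, beta globin, read 132, 88.1 and 98.8. NKX2-5 was lowest on replicate 3, and the others differed little between arrays. The neurofilament genes read 46.4, 699 and 285 for NEFM and 18.3, 479 and 320.4 for NEFL, low on replicate 1, while RBFOX1, a splicing factor of neurons and muscle, read 472, 36 and 286 and was low on replicate 2. CIDEC, of lipid droplets, read 99.5, 94.2 and 83.3. SNAP25, of synaptic vesicle release, read 72.5, 112 and 89.8, and SYT1, its calcium sensor, read 38.9, 85 and 139.7.

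Mesenchymal neighbours of muscle lay above the other lineages and near the contractile list. Smooth muscle markers had a median percentile of 40.5 and fibroblast markers of 43.7, beside 44 for the contractile genes. On replicate 2 both lay above the contractile list, with 39.8 and 45.7 against 31.3. CALD1, caldesmon, also made by non-muscle cells, was bright at 802, 458 and 857, and ACTA2 read 118, 276 and 100.4 and SMTN 197, 104 and 91. The smooth muscle genes MYH11 and CNN1 had mean signals of 8.92 and 8.36. Of the fibroblast genes, besides collagens, THY1 read 62.7, 166 and 463 and S100A4 70.6, 78.9 and 1161. Both were highest on replicate 3, S100A4 by a wide step. The summed signal of the fibroblast list was 1614, 3382 and 7641. Most of each sum was COL3A1, with 895, 2462 and 5197. COL3A1, COL1A1, COL1A2, DCN and LUM are also in the matrix list, so the sum is no separate reading from it. The part of fibroblast genes in the matrix differences was not tested.

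Outside the lower 40%, the arrays differed about as much at every level except the very top. Of the 7178 genes outside the lower 40%, 2053 (28.6%) had a range over 1, the median range was 0.67, and 138 genes had a range over 3. By level, 27.6% of genes at percentiles 40 to 60, 29.5% at 60 to 80, 31.6% at 80 to 90 and 27.8% at 90 to 99 had a range over 1, against 7.5% of the brightest 1%. With 1 array left out, so that a range is between 2 arrays, the count was 969 without replicate 1, 983 without replicate 2 and 1332 without replicate 3. The highest value was not tied to 1 array: 747, 747 and 559 of the 2053 genes were highest on replicates 1, 2 and 3. These counts do not bear on the check for mixed-up samples, in which 1 array did not match the line in the labels. Between pairs of arrays, Pearson's r over the 11963 genes was 0.900 for replicates 1 and 2, 0.914 for 1 and 3 and 0.925 for 2 and 3. It is across genes, which are not replicates.

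**Figure D4:**
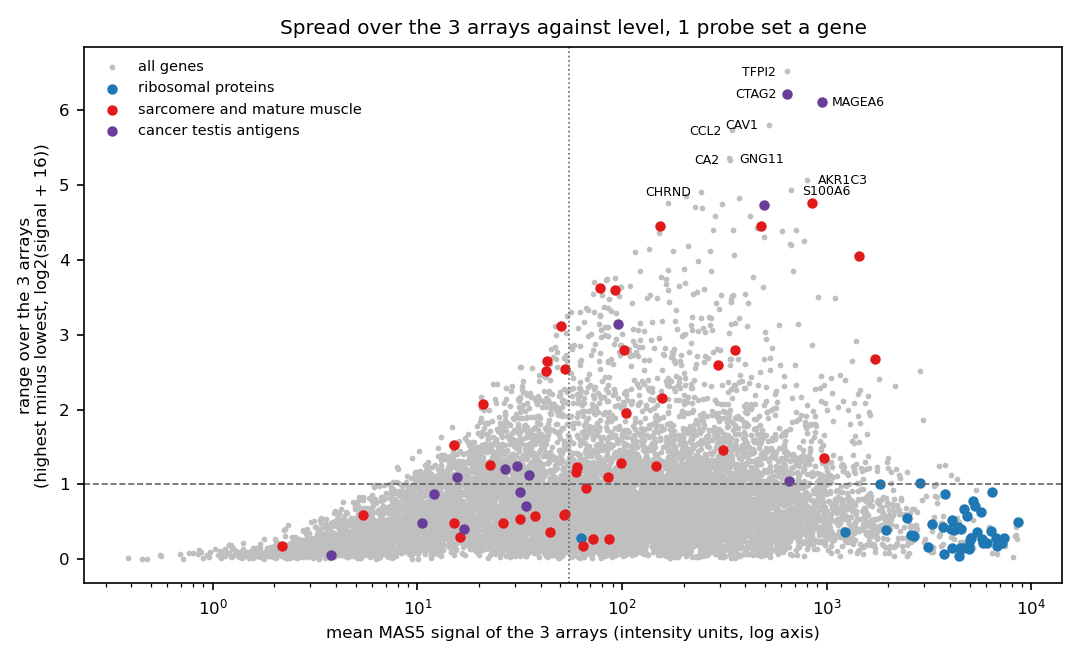
Range over the 3 arrays (vertical axis, log2(signal + 16)) against mean MAS5 signal (horizontal log axis, intensity units) for each gene, with 3 gene lists in colour. The dashed line marks a range of 1 and the dotted line the signal of 55.3 under which the lower 40% lie; ribosomal proteins stay near or under the dashed line, and the 10 genes of largest range are named.

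The genes with the largest range were on some arrays bright and on others dim. TFPI2, a secreted protease inhibitor, read 4.53, 41.7 and 1868, a range of 6.52. CAV1, caveolin-1 of membrane pits, read 6.35, 328 and 1229, and CCL2, a monocyte chemokine, 7.4, 3.64 and 1027. GNG11, a G protein gamma subunit, read 6.45, 92.1 and 904, and S100A6, a calcium-binding protein, 41, 253 and 1719.9. These 5 were highest on replicate 3 and under 50 on replicate 1. CA2, carbonic anhydrase 2, was bright on replicate 2 alone, with 14.7, 983 and 8.7. AKR1C3, a steroid-reducing enzyme, was highest on replicate 1 with 1844, 39.3 and 519.7. CTAG2, MAGEA6 and CHRND, given above, complete the 10. At the other end, TOX4 read 357, 355 and 359, DDX23 343, 338 and 342 and HYAL2 239, 239 and 235. The other genes of smallest range were BNC2, MAP3K11, GNAZ, FMO2, CPD, NEUROD2 and UVRAG, with mean signals from 62.1 to 172 and ranges of at most 0.03.

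A group of 31 genes read over 500 on 1 array and under 50 on another. Beside the 10 above it holds PEG3, an imprinted zinc finger gene, which read 1184, 42.4 and 33.7, and OLFM1, a secreted neural glycoprotein, which read 1064, 30.6 and 22. Both were bright on replicate 1 alone. CDH2, N-cadherin, which joins myoblasts, read 5.42, 193 and 536, and ZIC1, a zinc finger factor of neural tube and somites, 19.4, 293 and 732. Both were lowest on replicate 1. The 4 genes DYSF, TNNC2, MAGEA12 and NEFM, given above, also belong to it. HOXB6, a body-axis gene, read 20.2, 518 and 65.6, highest on replicate 2. These 5 were chosen from the 31 after their values were seen. The other 12 were RADX, CYBA, ATXN7L3B, USP22, REEP1, ARMCX2, SERPINI1, MTUS1, TGFBI, ALDH2, AKAP12 and PYGL.

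Most of these differences returned in the vector cells given 4-OHT. In those 3 arrays PEG3 read 2078, 29 and 29.3, CA2 36.5, 1087 and 8.4 and TFPI2 1.77, 41.9 and 1825 on replicates 1, 2 and 3. The array that was bright without 4-OHT was the bright one with it. Of the 7178 genes, 52.1% had their highest and their lowest value on the same numbers with and without 4-OHT, and among the 2053 genes with a range over 1 it was 1497 (72.9%), and among the 31 genes it was 28. Over the 11963 genes, Pearson's r between the arrays of one number without and with 4-OHT was 0.969, 0.978 and 0.984 for numbers 1, 2 and 3, against 0.895 to 0.926 between different numbers, all across genes. Between arrays of the same number 203, 101 and 32 genes lay over 1 apart on the log2 scale, and 937 to 1484 between different numbers. Whether the numbers mark separate populations or anything else was not tested.

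**Figure D5:**
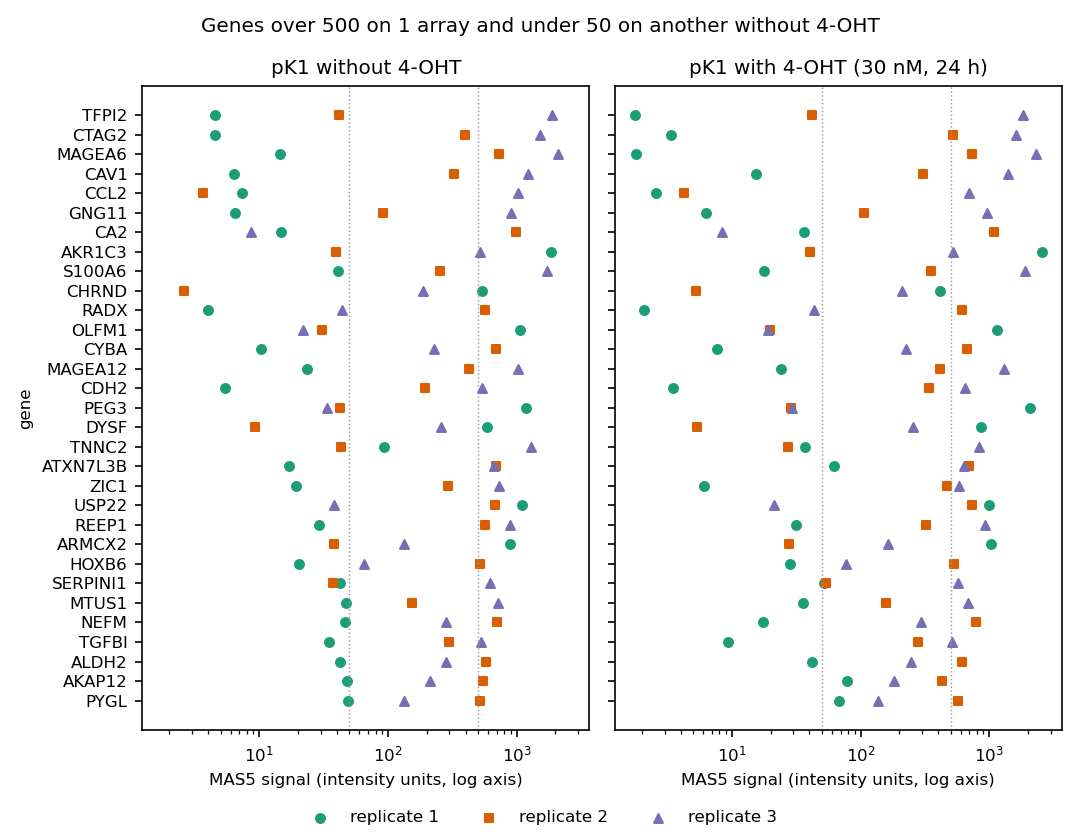
MAS5 signal (horizontal log axis, intensity units) of the 31 genes over 500 on 1 array and under 50 on another, in vector cells without 4-OHT (left) and with 30 nM 4-OHT for 24 h (right), coloured by replicate number. The dotted lines stand at 50 and 500, and for 28 of the 31 genes the highest and the lowest array carry the same numbers in both panels.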

How the data were processed

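RNA of RD cells was hybridised to Affymetrix U133A arrays after biotin labelling, per the labels' protocols. The values deposited by the authors are linear intensity, 1 MAS5 signal per probe set and array. The submitters' processing notes name GCOS and MAS5 without versions. Every array had a trimmed mean signal of about 150, and neither detection calls nor scanner files were used here, so their number, 3, limits the precision. Of 22283 probe sets, 68 controls were set aside, and of the other 22215, 19065 carried 1 gene symbol, 1043 several and 2107 none. Of the 19065, 19053 matched a RefSeq gene by Entrez ID, and no symbol was altered.

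Each gene took its brightest probe set with a single symbol. Means, SDs, ranges on log2(signal + 16), percentiles and list medians were computed with Python 3.11.15, numpy 2.4.6 and pandas 2.3.3. The log2 values were computed from the deposited signals. The report is a description of 1 group, so no statistical test was run. The script that counts ranges over 1 was tested on simulated data with known changes. The simulated noise was smaller than the spread of these arrays, so the test checks only that the counting works. Named were the 30 brightest genes, the 5 brightest of each of the 19 lists that are not markers of other lineages, all rhabdomyosarcoma markers and myogenic regulators, from the 10 marker lists of other lineages the genes above the median gene (the rule also takes their 5 brightest, not all printed), and the 10 largest and 10 smallest ranges. Members and lists were chosen with earlier results of these data known. Other genes were named after their values were seen. Genes used to infer sex are not named. Alternatives were another probe set per gene, no _x_at and _s_at probe sets, the median array, quantile normalization, another offset, another filter and each array left out.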

Additional observations from a re-analysis of the deposited data

How the results depend on the processing

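No paired analysis was possible because the results describe 1 group and come from no test between groups, and the likeness of arrays of one number with and without 4-OHT is only described. The count of 41 ribosomal protein genes among the 100 brightest was 11 without _x_at and _s_at probe sets, and 40 to 42 with an array left out. The median percentile of myogenic regulators (65.1) was 50.2 with the median over a gene's probe sets and 39.9 without _x_at and _s_at probe sets. That of ribosomal proteins was 99.75 without them. With an array left out, the ranges were 63.0 to 67.4 for myogenic regulators, 35.2 to 47.8 for contractile genes, 70.7 to 80.9 for matrix genes, 99.61 to 99.65 for ribosomal proteins, 91.8 to 93.4 for the cell cycle and 9.91 to 14.4 for epithelial markers. The count of genes with a range over 1 (2053) was 969 to 1332, over pairs of arrays. The mean Pearson's r between arrays (0.913) was 0.899 on log2(signal + 1) and 0.824 outside the lower 40%. The ratio of brightest to dimmest probe set (3.50) was 3.72 outside the lower 40%. For the other 23 lists, 161 alternatives moved the median by less than the SD over arrays in 116 cases and by more in 45. In 7 cases, over 5 lists, a list crossed the median of all genes, among them contractile genes (51.6 without _x_at and _s_at probe sets), MHC genes (48.1 without replicate 3) and smooth muscle markers (54.3 without _x_at and _s_at). The cause of these shifts was not tested, beyond the fewer genes that the stricter probe set rule leaves. Dim probe sets are read near the background of the array, so their order and spread have little meaning.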
